A study of Mus musculus with 6 samples.

Results

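The matrix metalloproteinases, the Adamts proteases and the Timp inhibitors that block them were examined in muscle RNA of FLExDUX4 mice and their wild-type (WT) littermates. The set held 10 genes of the 52550 mouse genes in the deposited table, namely Timp1, Timp2, Timp3, Timp4, Mmp2, Mmp9, Mmp14, Mmp15, Adamts1 and Adamts5. They were picked by name from the extracellular protease families with the genotype totals already known, so their values are given as a description and support no test. The FLExDUX4 mice were hemizygous for an inverted human DUX4 transgene at the Rosa26 locus, without the Cre driver that turns it, so that DUX4 comes only from leaky expression. The labels give male mice, 13 weeks old, 3 of each genotype, and quadriceps, whereas the methods give triceps at 2 months. The methods also say that muscles were snap-frozen. RNA was sequenced with QuantSeq, a method that yields about a read for each transcript, taken near its 3′ end, and counts of different genes were compared without dividing by length.

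Matrix metalloproteinases are zinc enzymes that cut collagens and other matrix proteins, and Adamts enzymes cut large proteoglycans such as versican and aggrecan. Timp proteins bind their active sites, and Timp3, which is held in the matrix, also blocks several Adamts and Adam enzymes. In muscle these proteins take part in repair, in vessel growth and in the turnover of the matrix around the fibers, and most are made by the cells between the fibers.

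Counts on mouse genes came to 13110125 in the FLExDUX4 total and 18367364 in the wild-type total, and each total sums the mice of a genotype. No spread between mice enters any value, since the columns of single samples have names that match no label and were not used. Each range in parentheses is an exact 95% interval that covers counting error only. Levels are in CPM, counts for each 1000000 counts of the library after TMM scaling, which brings the totals to a common base from the typical gene. Ratios are log2 ratios of FLExDUX4 to wild-type. The table held no feature named DUX4, and the 4 mouse genes of the Dux family were listed at 0 in both totals, so the genotype labels could not be checked on the transgene. The 7 muscle fiber markers summed to 121080 and 121643 CPM in FLExDUX4 and WT muscle. The 99 spike-in RNAs took 220016 and 259913 counts. Scaling to them in place of TMM moved every gene by -0.28, and the median of all genes to -0.28, so ratios below are relative to the typical gene.

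The Timp genes far outweighed the proteases in both genotypes. The 4 Timp genes held 6693 counts in FLExDUX4 and 8088 in WT, against 1379 and 1807 for the 6 proteases. This was 4.85 Timp counts for each protease count in FLExDUX4 (4.58 to 5.15) and 4.48 in WT (4.25 to 4.71). The ratio of counts within a genotype needs no scaling, and its log2 difference was 0.12 (0.0044 to 0.23). The sign of this difference rested on Timp3, since without Timp3 it was -0.063 (-0.18 to 0.058). All 10 genes together took 0.0616% of the counts in FLExDUX4 and 0.0539% in WT.

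**Figure D1:**
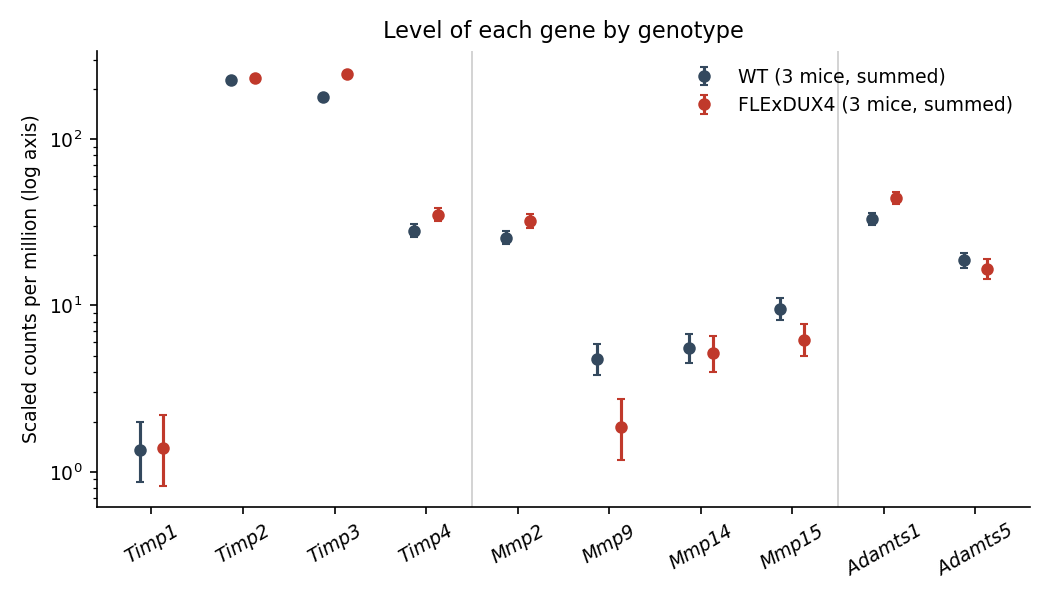
Scaled CPM of the 10 genes on a log axis, with a point for the wild-type total and a point for the FLExDUX4 total of each gene and bars for exact 95% Poisson intervals. Timp2 and Timp3 sit above 170 CPM in both genotypes, and every other gene is below 50 CPM.

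Levels spanned 169-fold among the genes in WT and 178-fold in FLExDUX4. In WT the order from high to low was Timp2, Timp3, Adamts1, Timp4, Mmp2, Adamts5, Mmp15, Mmp14, Mmp9 and Timp1. The counting intervals of Adamts1 and Timp4, of Timp4 and Mmp2, and of Mmp14 and Mmp9 overlapped in this order. In FLExDUX4 Timp3 came before Timp2, and the other genes kept their places. There the intervals of Timp3 and Timp2, of Timp4 and Mmp2, of Mmp15 and Mmp14, and of Mmp9 and Timp1 overlapped. Timp1, at 43 counts over both totals, was the least abundant of the set, and Timp2, at 7247, the most abundant.

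Across the 13396 genes with enough counts to compare, 13.2% were at least 1.5-fold higher in FLExDUX4 and 13.5% at least 1.5-fold lower. All 10 genes of the set passed the same filter. None of them was 1.5-fold higher, and 2 were 1.5-fold lower, Mmp9 and Mmp15. The counting interval lay above 0 for 20.5% of all genes and below 0 for 20.6%, and in the set for 4 genes (Timp3, Timp4, Mmp2 and Adamts1) and 2 genes (Mmp9 and Mmp15). The median ratio was 0.04 in the set and -0.001 over all genes, and its median size was 0.33 in the set and 0.28 over all genes.

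**Figure D2:**
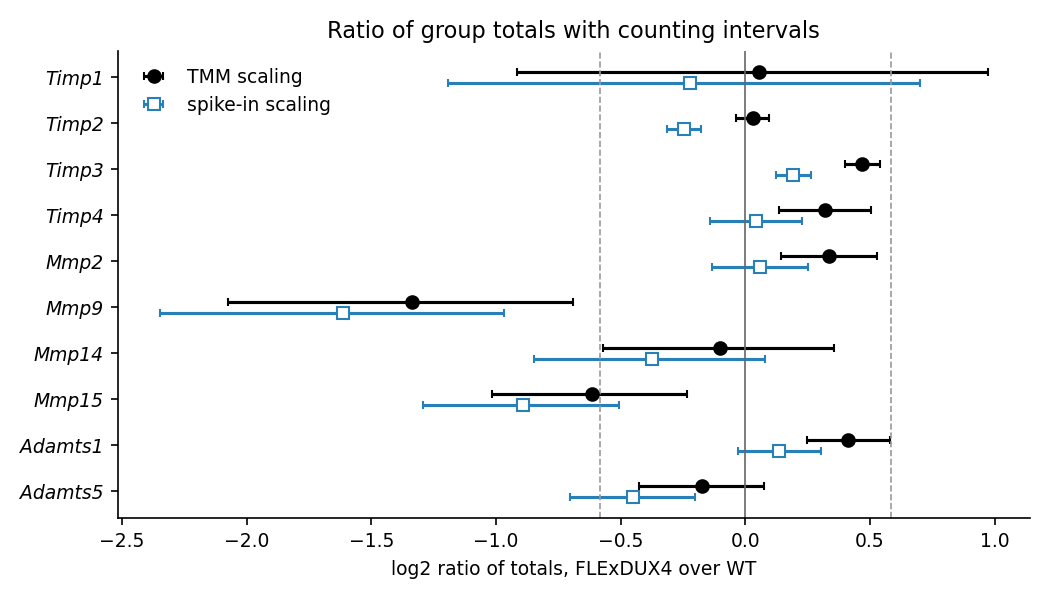
Log2 ratio of the FLExDUX4 total to the wild-type total (horizontal axis) for each gene, with 95% counting intervals, under TMM scaling (filled circles) and spike-in scaling (open squares); dashed lines mark 1.5-fold. Mmp9 and Mmp15 lie left of 0 under both scalings, Timp3 lies right of 0 under both, and Timp4, Mmp2 and Adamts1 have intervals that reach 0 under spike-in scaling.

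The stretches before the starts of Timp3, Timp4 and Adamts1 are shown because these are the genes with an interval above 0 that have an entry in RefSeq's promoter table (GRCm38.p6), which held 7 of the 10 genes. They were searched on both strands for the letters of 5 promoter motifs, with matches in capitals, and are written 5′ to 3′ on the strand of the gene up to the first annotated start. The 210 bases of Timp3 are chr10:86300162-86300371 on the plus strand, the 250 of Timp4 are chr6:115252206-115252455 on the minus strand, and the 250 of Adamts1 are chr16:85803114-85803363 on the minus strand.
Timp3: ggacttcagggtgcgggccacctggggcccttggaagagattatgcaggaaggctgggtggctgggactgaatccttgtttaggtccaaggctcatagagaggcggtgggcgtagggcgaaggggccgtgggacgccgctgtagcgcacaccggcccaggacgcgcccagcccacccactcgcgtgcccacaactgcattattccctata
Timp4: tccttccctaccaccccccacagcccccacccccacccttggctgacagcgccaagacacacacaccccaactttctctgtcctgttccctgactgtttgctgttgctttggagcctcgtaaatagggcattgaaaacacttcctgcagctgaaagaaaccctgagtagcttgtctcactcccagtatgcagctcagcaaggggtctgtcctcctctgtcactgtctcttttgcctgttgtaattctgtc
Adamts1: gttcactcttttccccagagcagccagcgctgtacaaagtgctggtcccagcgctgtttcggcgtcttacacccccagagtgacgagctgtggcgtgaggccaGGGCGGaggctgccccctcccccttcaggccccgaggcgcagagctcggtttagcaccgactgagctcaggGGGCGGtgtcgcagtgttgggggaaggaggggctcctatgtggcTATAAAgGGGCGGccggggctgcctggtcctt

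The GC box was spelled GGGCGG and the TATA motif TATAAA. The Adamts1 stretch held 3 of the former and a copy of the latter, and those of Timp3 and Timp4 held no match. In the full 250 bases before the RefSeq start, 6 of the 7 genes held a GC box, as did 32.7% of the 32851 promoters in the table, and the exception was Timp4. For Timp3 the GC box lay between the GENCODE and the RefSeq start, and for Timp2 the whole window did. Upstream of both starts, the GC boxes left were those of Timp1, Mmp14, Mmp15 and Adamts1. The TATA motif was in 1 of the 7 and in 12.4% of all promoters. None of the 7 held TGANTCA, the AP-1 motif, which 6.75% of all promoters held. The same was so for the E-box CACGTG, found in 6.02% of all promoters, and for the forkhead motif TGTTTAC, found in 3.17%. A match is a run of letters and not a site, and no match says only that these letters are absent from the window.

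Timp3 was the inhibitor with the largest ratio. Timp3 (ENSMUSG00000020044, chromosome 10, 86300372 to 86349506, GRCm38 as for all positions here) drew 3201 counts in FLExDUX4 and 3309 in WT, or 247 CPM (238 to 255) and 178 CPM (172 to 184). The log2 ratio was 0.47 (0.40 to 0.54), a 1.38-fold higher level. It was the only gene of the set whose interval stayed above 0 under spike-in scaling, at 0.19 (0.12 to 0.26). Among the 2491 genes with 1000 to 10000 counts over both totals, where Timp3 falls, 47.5% had an interval that left out 0, in either direction. Of the 2491, 0.883% were at least 1.5-fold higher, a line that Timp3 did not reach, and the median size of the ratio was 0.12.

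Timp2 lay near the typical gene. Besides blocking metalloproteinases, the Timp2 protein helps the membrane enzyme Mmp14 to activate pro-Mmp2. Timp2 (ENSMUSG00000017466, chromosome 11, 118301069 to 118355740) had 3017 counts in FLExDUX4 and 4230 in WT, or 233 and 228 CPM. The ratio was 0.03 (-0.04 to 0.10), or -0.25 (-0.31 to -0.18) with spike-in scaling. In FLExDUX4 there were therefore 1.06 counts of Timp3 for each count of Timp2 (1.01 to 1.12), against 0.782 in WT (0.747 to 0.819). The log2 difference of this ratio was 0.44 (0.34 to 0.54), and no choice of scaling enters it. Timp2 made up 52.3% (51.2 to 53.4) of the Timp counts in WT and 45.1% (43.9 to 46.3) in FLExDUX4, and Timp3 40.9% and 47.8%.

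Timp4, the inhibitor best known from heart and skeletal muscle, had a higher level under TMM scaling. Timp4 (ENSMUSG00000030317, chromosome 6, 115241892 to 115252205) had 457 reads against 524, or 35.2 and 28.2 CPM, a ratio of 0.32 (0.13 to 0.50). With spike-in scaling it was 0.04 (-0.14 to 0.23). Its share of the Timp counts was 6.83% (6.24 to 7.46) in FLExDUX4 and 6.48% (5.95 to 7.04) in WT, with overlapping intervals. Timp1, the inducible inhibitor that rises in injured and inflamed tissue, had only 18 reads against 25. Timp1 (ENSMUSG00000001131, chromosome X, 20870166 to 20874735) had a ratio of 0.05 with an interval from -0.92 to 0.97, so a difference of nearly 2-fold in either direction was not detectable at this depth.

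**Figure D3:**
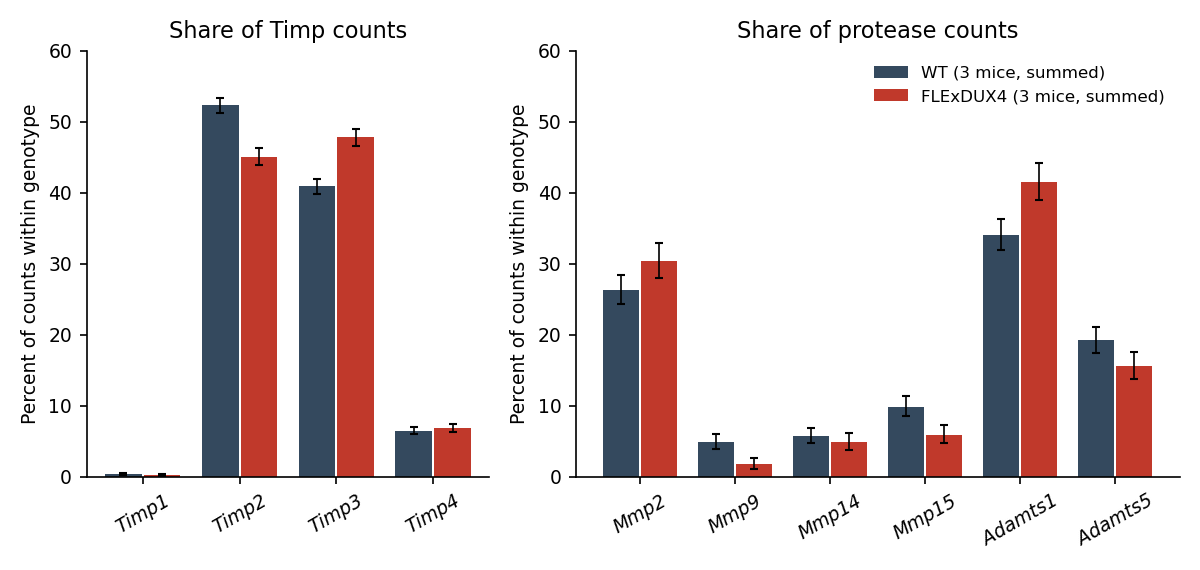
Share of each gene in the counts of its side, as a percent of the 4 Timp genes (left) and of the 6 proteases (right), for wild-type and FLExDUX4 totals, with exact 95% binomial intervals. Timp3 makes up 47.8% of the Timp counts in FLExDUX4 and 40.9% in WT, and Adamts1 41.6% and 34.1% of the protease counts.

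The Timp genes 1, 3 and 4 lie inside genes of the synapsin family, on the opposite strand, as the annotation shows. Syn1 spans Timp1, Syn3 spans Timp3 and Syn2 spans Timp4. Exons of Timp3 and Syn3 share 1733 bases, and those of Timp4 and Syn2 share 90. The sources used here do not give the strand setting of the authors' counting. Syn1 and Syn3 were listed at 0 in both totals, and Syn2 had 23 counts in FLExDUX4 and 57 in WT, a ratio of -0.77 (-1.56 to -0.07). If the counting ignored strand, reads in the shared bases could not be given to either gene.

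Mmp9 had the lowest ratio of the set. It encodes gelatinase B, an enzyme that neutrophils and macrophages store or secrete. Mmp9 (ENSMUSG00000017737, chromosome 2, 164940780 to 164955850) had 24 counts in FLExDUX4 and 88 in WT, or 1.85 CPM (1.19 to 2.75) and 4.74 CPM (3.8 to 5.84). The ratio was -1.34 (-2.07 to -0.69), a level 2.53-fold lower, and -1.61 with spike-in scaling. Its share of the protease counts was 1.74% in FLExDUX4 and 4.87% in WT. Of the 3538 genes with 50 to 200 counts over both totals, 19.4% were at least 1.5-fold lower.

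Markers of neutrophils, a source of Mmp9, had lower totals too. The 8 genes of that list summed to 25 counts in FLExDUX4 and 153 in WT, a ratio of the sums of -2.07. S100a9 had 13 reads against 105 and S100a8 11 against 37, both genes of the calprotectin complex, and Retnlg had 1 against 8. The defining markers Ly6g, Mpo, Elane and Camp were listed at 0 in both totals, and Ngp had 0 against 3. Mmp8, the neutrophil collagenase and no member of that list, had more reads in FLExDUX4, 14 against 2. With so few it could pass the filter through FLExDUX4 alone, so no ratio is given. The 8 macrophage markers summed to 1298 and 1844 counts, a ratio of 0.01, with 3 higher and 5 lower. Cd68, at -0.64, Adgre1, at -0.66, and C1qb, at -0.62, were below 0, while the scavenger receptor gene Cd163 was at 0.92. The part of these cells in the Mmp9 value was not tested. In RNA of whole muscle, fewer cells of a type and less RNA in each cell cannot be told apart.

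Mmp2, gelatinase A, differed in the other direction from Mmp9. It is made by fibroblasts and other mesenchymal cells. Mmp2 (ENSMUSG00000031740, chromosome 8, 92827291 to 92853420) had 419 counts in FLExDUX4 and 475 in WT, or 32.3 and 25.6 CPM, a ratio of 0.34 (0.14 to 0.53). It was 0.06 (-0.13 to 0.25) with spike-in scaling. For each count of Mmp2 there were 0.0573 counts of Mmp9 in FLExDUX4 and 0.185 in WT, a log2 difference of -1.69 (-2.44 to -0.996) between the gelatinases. The 8 fibroblast markers had a ratio of their sums of 0.06, from 19855 and 27159 counts, most of them from Dcn and Gsn. Of these markers 7 had a ratio above 0 and 1 below, with a median of 0.11. The interval lay above 0 for 3, Lum at 0.48, Ly6a at 0.44 and Gsn at 0.05, against 20.5% of all genes.

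The membrane-anchored enzymes Mmp14 and Mmp15 were both near or below the typical gene. Mmp14 (ENSMUSG00000000957, chromosome 14, 54431612 to 54445364), the activator of pro-Mmp2, had 67 reads against 103 and a ratio of -0.10 (-0.57 to 0.35). Mmp15 (ENSMUSG00000031790, chromosome 8, 95352268 to 95375080), a close relative with a similar anchor, had 81 reads against 178. This was 6.24 CPM in FLExDUX4 (4.96 to 7.76) and 9.59 CPM in WT (8.23 to 11.1), a ratio of -0.61 (-1.02 to -0.23). Mmp15 was 1.53-fold lower and so just past the 1.5-fold line, with -0.89 under spike-in scaling. Of the 4648 genes with 200 to 1000 counts, where it falls, 5.01% were at least 1.5-fold lower. The ratio of Mmp15 to Mmp14 counts was 1.21 in FLExDUX4 and 1.73 in WT, and the interval of its log2 difference held 0 (-1.13 to 0.10).

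Timp2, Mmp14 and Mmp2, which form the activation complex, were set beside each other. There were 45 counts of Timp2 for each of Mmp14 in FLExDUX4 (35.4 to 58.3) and 41.1 in WT (33.8 to 50.4). The ratio of Timp2 to Mmp2 was 7.20 against 8.91, a log2 difference of -0.31 (-0.51 to -0.10). For Mmp2 over Mmp14 it was 6.25 against 4.61, with an interval of the log2 difference from -0.06 to 0.95.

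Adamts1 and Adamts5 are neighbors on chromosome 16, on the same strand, and both enzymes cut versican and aggrecan. Adamts1 (ENSMUSG00000022893, 85793827 to 85803113) was the most abundant protease of the set. It had 573 counts in FLExDUX4 and 616 in WT, or 44.2 CPM (40.6 to 47.9) and 33.2 CPM (30.6 to 35.9). The ratio was 0.41 (0.25 to 0.58), and 0.14 (-0.03 to 0.30) with spike-in scaling. Adamts5 (ENSMUSG00000022894, deposited start 85858170) had 215 reads against 347, a ratio of -0.17 (-0.43 to 0.08), or -0.45 (-0.70 to -0.20) with spike-in scaling. The pair thus lay apart, with 2.67 counts of Adamts1 for each of Adamts5 in FLExDUX4 and 1.78 in WT. That log2 difference was 0.59 (0.28 to 0.89) whatever the scaling.

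Timp3 is a Timp that blocks Adamts enzymes, and its counts were set beside those of Adamts1 and Adamts5. Timp3 over Adamts5 was 14.9 in FLExDUX4 (13.0 to 17.2) and 9.54 in WT (8.54 to 10.7), a log2 difference of 0.64 (0.38 to 0.90). Timp3 over Adamts1 was 5.59 against 5.37, and the log2 difference of 0.06 had an interval that held 0 (-0.12 to 0.24). Timp1 over Mmp9 was 0.75 against 0.284, a log2 difference of 1.40 (0.20 to 2.58) that rests on 18 and 24 counts in FLExDUX4.

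Most other genes of these families had very few reads. Of 19 other Mmp genes, 8 were listed at 0 in both totals and 5 passed the filter. Those with the most reads were Mmp11 with 15 counts in FLExDUX4 and 26 in WT, Mmp23 with 16 and 23, and Mmp19 with 18 and 11. None of the 5 that passed reached 60 counts over both totals, and a gene this low could pass through the genotype where it is high, so their directions are not counted. The 19 genes summed to 102 and 91 counts, a ratio of the sums of 0.68. Of 17 other Adamts genes, 8 passed, some of them with few counts in FLExDUX4, and the 17 summed to 343 and 499 counts, a ratio of the sums of -0.024. Adamts2, which trims procollagen, had a ratio of 0.05 (-0.27 to 0.37) and Adamts9 of 0.39 (-0.12 to 0.90). Adamts20 had 67 reads against 48, a ratio of 0.99 (0.44 to 1.56). Adamts15 had 5 counts in FLExDUX4 and 36 in WT, and Adamts12 had 1 and 14. Such genes could pass through the genotype where they are high, so directions of the 8 are not counted either. With all Mmp and Adamts genes of the table in the denominator, the Timp ratio was 3.67 in FLExDUX4 and 3.37 in WT.

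Among 7 Adamts-like genes, which lack the protease domain, 6 passed the filter, and the 7 summed to 388 and 569 counts, a ratio of the sums of -0.035. Adamtsl5 had a ratio of 0.40 (0.08 to 0.72), Adamtsl4 of -0.22 (-0.60 to 0.14) and Adamtsl1 of -0.08 (-0.47 to 0.30). The membrane Adam proteases passed in 8 of 10 cases, 7 higher and 1 lower, with a median of 0.22. Adam10 and Adam9, both sheddases, had ratios of 0.42 (0.16 to 0.68) and 0.40 (0.14 to 0.66), and Adam15 of 0.19. Of 20 other regulators, 16 passed, 9 higher and 7 lower, with a median of 0.08. Bsg, which encodes the inducer basigin, had a ratio of 0.09 and Thbs4 of 0.08. Serpine2, which encodes an inhibitor of serine proteases, was at -0.33 (-0.43 to -0.22) from 1188 and 2131 counts. Plat, the tissue plasminogen activator, had 17 reads against 70 and a ratio of -1.49 (-2.38 to -0.75).

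**Figure D4:**
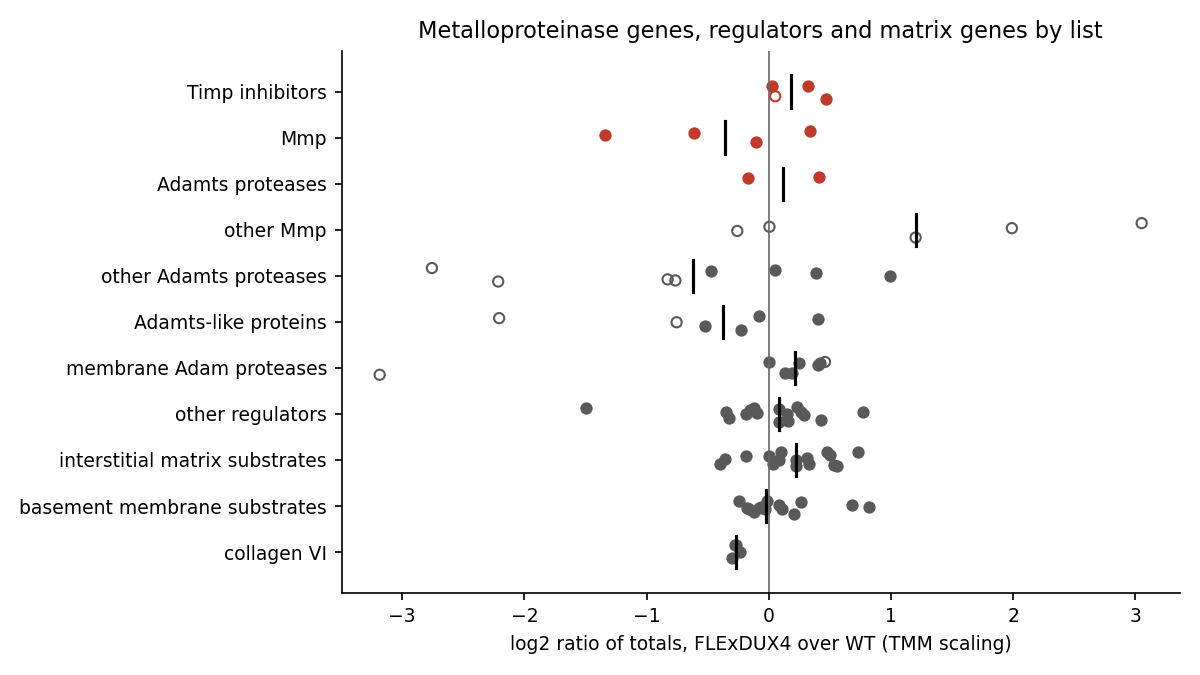
Log2 ratio of FLExDUX4 to wild-type totals (TMM scaling) for each gene that passed the filter, by list, with the 10 genes of the set in red, the other lists in grey, open circles for genes with under 60 counts over both totals and a black bar for the list median. The Mmp genes of the set range from -1.34 to 0.34, and the Timp genes from 0.03 to 0.47.

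The markers of other cell types differed in direction. The ratio of summed counts was -0.12 for 8 endothelial markers, 3 above 0 and 5 below, with Vwf at 0.71, Kdr at -0.56, Tek at -0.63 and Cldn5 at -1.34. For 7 smooth muscle and pericyte markers, 6 above 0 and 1 below, it was 0.10, and for 6 satellite cell markers, of which 5 passed the filter, it was -0.12, with 1 above 0 (Myf5 at 0.34) and 4 below, from Cdh15 at -0.019 to Pax7 at -0.82. Adipocyte markers were at 0.35, with 6 of 7 higher, among them Cfd at 0.88, Adipoq at 0.70, Retn at 0.69 and Fabp4, which held most of the counts, at 0.11, while Lep, with 12 and 31 counts, was at -0.82. All 5 blood markers were higher, with a ratio of the sums of 0.33. The ratios of the sums of these 2 lists lay near those of Timp3, Timp4, Mmp2 and Adamts1. Single genes of other lists lay there too, such as Lum and Ly6a, Acta2 at 0.38 and Tagln at 0.49. The part of any of these cell types in the values of the set was not tested. The muscle fiber list was at -0.01.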

How the data were processed

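QuantSeq libraries were made from muscle of 3 mice per genotype. Per the submitters' processing notes, the authors used cutadapt 1.16, STAR 2.5.3a and featureCounts 1.6.2, and the methods give GRCm38 joined to ERCC and SIRV spike-ins as the reference. The deposited counts are raw and summed by the authors over each genotype. The deposited table also has 6 columns of single samples whose names match no label, and columns of the authors' own comparison (fold change, standard error, test statistic and p-values). Neither kind was used, so the edgeR test planned for single samples was not run.

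TMM factors were computed with edgeR 4.0.16 in R 4.3.3, after filterByExpr. Ratios used a pseudocount of 0.5. Intervals are Clopper-Pearson for ratios and shares and Poisson for levels (scipy 1.17.1), and they were checked on simulated counts. RLE factors came from DESeq2 1.42.0. Coordinates are from GENCODE M21 on GRCm38, printed where the start equals the deposited one, as it does for 9 of 10 genes.

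The genes and lists were chosen with earlier results of these data known. Named are the 10 genes and, from each further list but those of cell type markers, the 3 with the most counts and those past 1.5-fold with at least 60 counts, beside the synapsins. A gene that this rule names is not reported here. Mmp8, Adamts12, Adamts15 and the markers were named after their values were seen. Sequences of the proteins were not used here.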

Additional observations from a re-analysis of the deposited data

How the results depend on the processing

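No paired analysis was possible because each genotype entered as a total. Leaving out each replicate, a DESeq2 test and an edgeR test were not run, since columns of single samples were not assigned to genotypes by their values. Of 80 member ratios under 8 other settings, 74 stayed within the counting interval of the value above, and the 6 that did not (Timp2, Timp3, Timp4, Mmp2, Adamts1 and Adamts5) all came from spike-in scaling. None changed sign among the genes whose interval left out 0. With spike-in scaling 1 gene of the set had an interval above 0 and 4 had one below. This scaling moved every gene by -0.28, and the shares of all genes with such intervals under it were not computed. The counts of all genes past 1.5-fold became 1048 higher and 3174 lower. The amounts of spike-in added were not used here, so added spike-in and RNA content cannot be told apart. Without a filter on low counts these counts were 4121 and 4959, and with at least 10 counts in each total they were 1305 and 1047, since other genes were then tested. At 2-fold 802 genes were higher and 995 lower, with 1 gene of the set lower (Mmp9). With the threshold at a ratio 25% above 1, in either direction, they were 3034 and 3059, with 3 of the set higher (Timp3, Mmp2 and Adamts1) and 2 lower (Mmp9 and Mmp15). The log2 difference of the Timp to protease ratio became 0.32 without Timp2, 0.29 without Adamts1 and, as an alternative chosen after seeing the data, -0.063 without Timp3.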

Other observations

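The matrix proteins that these enzymes cut were listed in 3 groups. Of 16 genes of the interstitial matrix, 13 had a scaled log2 ratio above 0 and 3 below 0, and the median was 0.22, or -0.05 with spike-in scaling. Col1a2 had a ratio of 0.33, Sparc of 0.31 and Dcn, the most abundant, of 0.04 (-0.001 to 0.08). Eln, which encodes elastin, had 268 counts in FLExDUX4 and 231 in WT and a ratio of 0.73 (0.47 to 0.99). Vcan, the versican substrate of Adamts1 and Adamts5, named after its values were seen, had 93 reads against 171 and a ratio of -0.36 (-0.74 to 0.01).

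Basement membrane genes lay closer to the typical gene. Of 14, 6 were higher and 8 lower, with a median of -0.02. Col4a1 had a ratio of -0.16 (-0.27 to -0.05), Lamb2 of -0.03 and Hspg2 of -0.12. Nid2, at 0.82 (0.38 to 1.26), and Lama2, at 0.69 (0.44 to 0.93), were past 1.5-fold. The collagen VI genes that passed the filter, 4 of 5, were all lower, with ratios from -0.30 to -0.23 and a median of -0.27. Col6a3 had 534 reads against 941, Col6a2 369 against 635 and Col6a1 345 against 581. These values compare genotype totals and carry no replicate check here.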
